A study of Rattus norvegicus with 18 samples.

Results

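Microglial marker genes were examined in RNA-Seq data from the dorsal hippocampus of rats during chronic ethanol drinking and withdrawal. The 9 genes are *Cx3cr1*, *P2ry12*, *Tmem119*, *Csf1r*, *Aif1*, *Trem2*, *Tyrobp*, *Itgam*, and *Cd68*. They were chosen by symbol, as genes commonly used to mark microglia, and all 9 were found among the 38445 genes counted and among the 17853 genes that passed the filter on low counts. Adult male wild-type Sprague Dawley rats were fed Lieber-DeCarli liquid diet, 6 rats per group. The control group received the diet without ethanol, and the ethanol group received 9% (v/v) ethanol in it and was not withdrawn. The withdrawal group received the same ethanol diet and was then switched to control diet for 24 h. The labels give 15 or 16 days on these diets. In all groups the liquid diet was the sole food and fluid, and the rats were housed singly. Each library came from 1 rat and from the whole dissected tissue, in which neurons, astrocytes, and oligodendrocytes outnumber microglia.

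Microglia are the resident macrophages of the brain. They depend on signals through the receptor CSF1R for survival, sense neurons through receptors such as CX3CR1 and P2RY12, and take up debris and synapses. When tissue is damaged, they typically lose part of their surveying profile and gain genes for phagocytosis and lipid handling, many of them downstream of the receptor TREM2 and its adaptor TYROBP.

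Total counts on genes ran from 30873228 to 42679748 per rat. Levels of a gene are given as CPM, its count relative to the library total scaled by the trimmed mean of M values (TMM), or as FPKM, the same divided by exon length. The labelled tissue was checked with 6 genes of hippocampal neurons, and withdrawal rat 5 stood apart, with a summed level of 1088 CPM against 1647 to 3410 CPM in the other 17 rats. In the same rat the 4 choroid plexus genes summed to 27.2 CPM and the 9 microglial markers to 145.7 CPM, the latter the lowest of all rats. Withdrawal rat 4 also had a low choroid plexus sum (25.9 CPM), while the other 16 rats had 1026 to 5060 CPM. Library index sequences came from 3 sets. All 6 control rats had one set that no other rat had, so that for comparisons with control the index set and the treatment cannot be told apart. Counts differed by more than sampling noise between any 2 rats of a group.

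None of the 9 genes passed the test for a change between groups. In the model of all 3 groups (limma-voom with 3 surrogate variables, which are unnamed sources of variation estimated from the data), a gene was called at q < 0.1, where q is the p-value adjusted over all genes tested. Between withdrawal and control, 0 of 9 were called, while 5.41% of all genes tested were. Between withdrawal and ethanol the members called were again 0 of 9 (2.72% of all genes), and between ethanol and control 0 of 9 (0.493% of all genes). These shares over all genes depended on single rats, and leaving out 1 rat gave 0.129% to 10.7% for withdrawal vs. control, 0% to 10.1% for withdrawal vs. ethanol, and 0% to 1.45% for ethanol vs. control. The test across the 3 groups together called 0 of 9 (5.93% of all genes), with *Tyrobp* lowest at q = 0.276 by limma-voom. The quasi-likelihood test of edgeR also called 0 in every comparison. Of all genes it called 3.82% for withdrawal vs. ethanol, 0.347% for ethanol vs. control, and 0.185% for withdrawal vs. control. Across the 3 groups it called 0 (2.68% of all genes). At an unadjusted p under 0.05 edgeR had 3, 1, and 0 of the 9 genes in these comparisons, and the share of all genes at that p is not given here. DESeq2 called *Trem2* (q = 0.0638) and *Itgam* (q = 0.0714) for withdrawal vs. ethanol, where it called 8.08% of all genes, and *Itgam* (q = 0.0957) across the 3 groups, where it called 8.86% of all genes.

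At an unadjusted p under 0.05 the limma-voom model had 0 of the 9 genes for withdrawal vs. control (19.7% of all genes), 3 for withdrawal vs. ethanol (16.7% of all genes), and 0 for ethanol vs. control (12.5% of all genes). Leaving out 1 rat moved these counts between 0 and 2, between 0 and 3, and between 0 and 2, respectively. The ranges of both groups overlapped for all 9 genes in the 3 comparisons, while they did not overlap for 1.06%, 1.22%, and 1.32% of all genes. The 3 genes with a p under 0.05 were *Trem2*, *Tyrobp*, and *Itgam*, each with a higher level in the withdrawal group. The median log2 fold change of the 9 genes was 0.04 for withdrawal vs. control (5 higher, 4 lower), 0.12 for withdrawal vs. ethanol (7 higher, 2 lower), and -0.11 for ethanol vs. control (2 higher, 7 lower), and over all genes tested it was 0.00 in each. Leaving out 1 rat moved these medians between -0.04 and 0.08, between 0.09 and 0.19, and between -0.14 and -0.06, respectively. For withdrawal vs. ethanol the tally depended on the model, since without surrogate variables, by edgeR, and by DESeq2 it was 5 higher and 4 lower, with *Cx3cr1*, *Tmem119*, *Csf1r*, and *Cd68* lower and a median of 0.07 without surrogate variables. The median size of the change, regardless of sign, was 0.06, 0.12, and 0.11 on the log2 scale for the 9 genes and 0.09, 0.09, and 0.08 for all genes tested. The last 2 comparisons share the ethanol rats, and each pair of comparisons shares a group, so these medians are not independent of each other. In bulk tissue, fewer microglia and less RNA of these genes per microglial cell cannot be told apart.

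**Figure D1:**
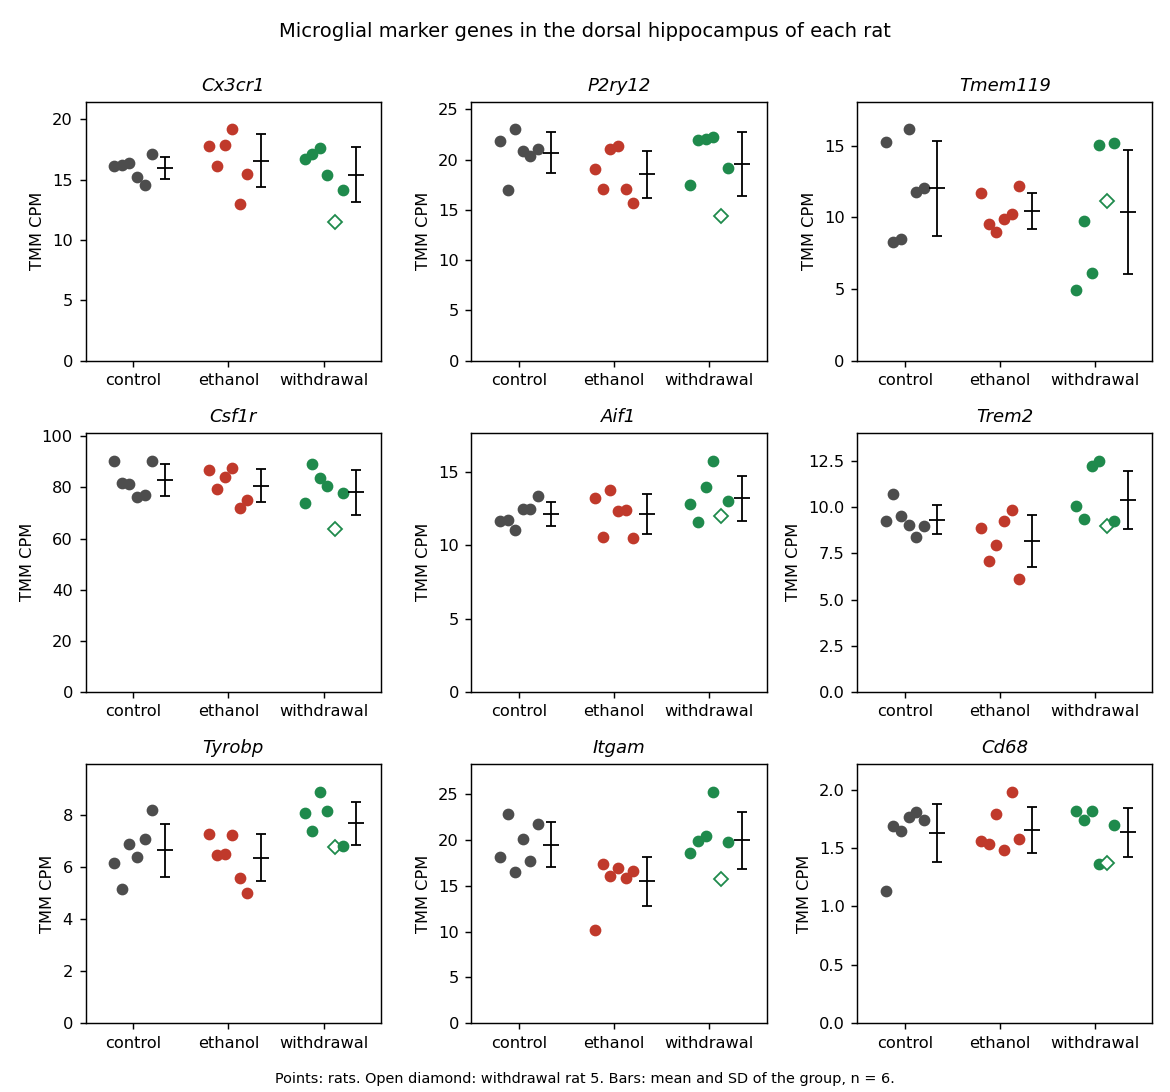
TMM CPM (y axis, from 0) of each of the 9 genes in every rat, by group, with the mean and SD of the 6 rats of a group beside the points and withdrawal rat 5 as an open diamond. The groups overlapped for all 9 genes, and *Itgam* showed the smallest overlap, with 5 of 6 withdrawal rats above all 6 ethanol rats.

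The widths of the intervals show what size of change these data leave possible. For *Csf1r*, the most deeply counted member, the 95% confidence interval of withdrawal vs. control ran from 0.867-fold to 1.06-fold. For *Tmem119*, the most variable, it ran from 0.660-fold to 1.13-fold. The *Tmem119* estimate, -0.21 on the log2 scale, moved between -0.49 and -0.12 when 1 rat was left out. Over the 9 genes and 3 comparisons the lowest bound was 0.592-fold and the highest was 1.503-fold.

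**Figure D2:**
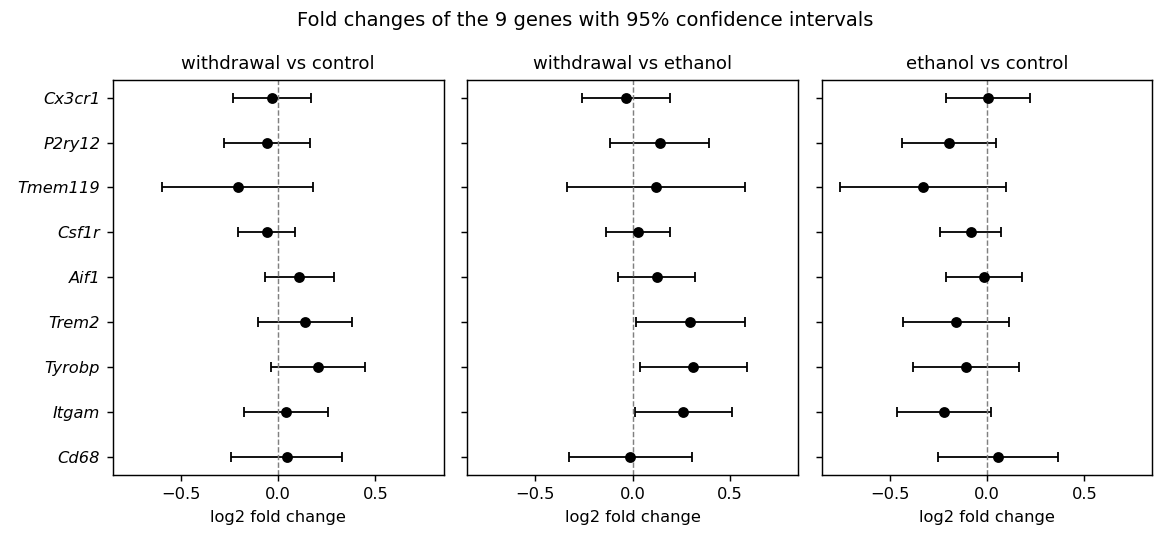
Log2 fold change (x axis) of each gene in the 3 comparisons, with the 95% confidence interval from limma-voom. The intervals of *Trem2*, *Tyrobp*, and *Itgam* between withdrawal and ethanol lie above 0 before adjustment for the number of genes tested, and the other 24 intervals include 0.

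*Itgam* (chr1:199495312-199545738 in Rnor_6.0, plus strand) encodes CD11b, the alpha chain of complement receptor 3, which binds opsonized material and is shared with monocytes and neutrophils. Its level ran from 16.5 to 22.8 CPM (median 19.1) in control rats, from 10.2 to 17.4 CPM (median 16.3) in ethanol rats, and from 15.8 to 25.3 CPM (median 19.8) in withdrawal rats. The ethanol group was thus the low one, none of its rats reached the control mean, and 5 of 6 withdrawal rats lay above every ethanol rat. Withdrawal minus ethanol was 0.26 on the log2 scale (SE 0.12, q = 0.279 by limma-voom), and ethanol minus control was -0.22 (SE 0.11, q = 0.447). Leaving out 1 rat moved the latter between -0.27 and -0.13. The two-sided exact permutation test over the rats, which uses no surrogate variables, gave p = 0.0152 for the first (difference of mean log2 CPM 0.37) and p = 0.0108 for the second (-0.34), where 0.00216 is the smallest p that 6 rats against 6 allow. Without ethanol rat 1, which had the lowest value of all 18 rats, the exact permutation p-values were 0.0303 and 0.0216.

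The partner chain of CD11b is encoded by *Itgb2*. Its level ran from 6.16 to 7.78 CPM in control, from 5.01 to 8.08 CPM in ethanol, and from 5.78 to 8.85 CPM in withdrawal rats. These ranges overlapped. Withdrawal minus ethanol was 0.23 on the log2 scale (SE 0.12, q = 0.356 by limma-voom).

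*Trem2* (chr9:14611541-14618076, minus strand) encodes a lipid-binding receptor that promotes phagocytosis and microglial survival. It ranged from 8.402 to 10.7 CPM (median 9.15) in control, from 6.09 to 9.83 CPM (median 8.42) in ethanol, and from 9.00 to 12.5 CPM (median 9.72) in withdrawal rats. All 6 withdrawal rats lay above the ethanol mean, and 3 of them lay above every ethanol rat. The withdrawal minus ethanol log2 difference was 0.30 (SE 0.13, q = 0.269 by limma-voom), with an exact permutation p = 0.0281. That p lay between 0.0519 and 0.0563 when any one of ethanol rats 2, 3, and 6 or withdrawal rats 1, 3, and 4 was left out of the exact permutation test. Against control, the log2 difference was 0.14 in withdrawal (SE 0.11) and -0.16 in ethanol (SE 0.13), and leaving out 1 rat moved them between 0.06 and 0.19 and between -0.23 and -0.08.

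*Tyrobp* (chr1:88875370-88879305, plus strand) encodes DAP12, the adaptor that carries the TREM2 signal into the cell. Its level ran from 5.15 to 8.19 CPM (median 6.61) in control, from 4.99 to 7.27 CPM (median 6.49) in ethanol, and from 6.77 to 8.88 CPM (median 7.71) in withdrawal rats. All 6 withdrawal rats exceeded the mean of the control rats and the mean of the ethanol rats, although the ranges overlapped. Withdrawal rats exceeded ethanol rats by a log2 difference of 0.31 (SE 0.13, q = 0.239 by limma-voom) and control rats by 0.20 (SE 0.11, q = 0.336), the latter between 0.13 and 0.30 when 1 rat was left out. Against control, the exact permutation p was 0.0823 with all rats and 0.0260 without control rat 6. The exact permutation p was 0.0303 for withdrawal vs. ethanol, and it was 0.0606 when any one of ethanol rats 5 and 6 or withdrawal rats 1, 3, and 4 was left out.

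Without withdrawal rat 5, the library that stood apart, *Tyrobp* was called between withdrawal and ethanol (log2 difference 0.38, q = 0.0986 by limma-voom), and *Trem2* (q = 0.158) and *Itgam* (q = 0.192) were not. In that fit 3.81% of all genes tested were called. The 3 genes had exact permutation p-values of 0.0173, 0.0216, and 0.00433, in the order named. Over all members and comparisons, 4 of the 27 exact permutation tests had an unadjusted p under 0.05 both with and without this rat. The share of all genes that passes this exact test is not given here, so this count has no background beside it.

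The index set was shared by the 6 ethanol rats and 2 of the withdrawal rats. Within that set, withdrawal minus ethanol was 0.34 for *Itgam*, 0.29 for *Tyrobp*, and 0.26 for *Trem2* on the log2 CPM scale. The difference farthest from 0 within the set was that of *Tmem119* (-0.58, exact permutation p = 0.214), against -0.12 over all rats. In the exact permutation test of 2 rats against 6, for which 0.0714 is the smallest possible p, *Itgam*, *Tyrobp*, and *Trem2* gave p = 0.0714, 0.0714, and 0.143. The direction was the same as over all rats for 6 of the 9 genes.

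The sequences before the annotated starts of *Itgam*, *Trem2*, and *Cx3cr1* are shown because *Itgam* and *Trem2* had smaller p-values between withdrawal and ethanol than most members, while *Cx3cr1* had an estimate close to 0 in every comparison. Each run is the 250 bases upstream of the start in RefSeq on GRCr8, read 5′ to 3′ along the gene, at chr1:192089342-192089591 (plus strand), chr9:20151780-20152029 (minus strand), and chr8:128677067-128677316 (minus strand), respectively. Capitals mark GAGGAA on either strand (TTCCTC), the core letters of sites bound by PU.1, the macrophage transcription factor encoded by *Spi1*, and TTCNNNGAA, the spaced palindrome that STAT factors bind.
Itgam: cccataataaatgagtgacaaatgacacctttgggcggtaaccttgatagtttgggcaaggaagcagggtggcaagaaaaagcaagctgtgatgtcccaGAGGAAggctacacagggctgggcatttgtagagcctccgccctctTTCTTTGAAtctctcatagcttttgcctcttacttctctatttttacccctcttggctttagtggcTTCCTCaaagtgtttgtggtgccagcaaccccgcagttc
Trem2: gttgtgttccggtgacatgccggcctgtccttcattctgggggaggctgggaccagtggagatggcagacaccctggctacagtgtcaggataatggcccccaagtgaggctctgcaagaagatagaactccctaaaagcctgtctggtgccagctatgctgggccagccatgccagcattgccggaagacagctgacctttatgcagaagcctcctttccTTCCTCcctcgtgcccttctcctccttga
Cx3cr1: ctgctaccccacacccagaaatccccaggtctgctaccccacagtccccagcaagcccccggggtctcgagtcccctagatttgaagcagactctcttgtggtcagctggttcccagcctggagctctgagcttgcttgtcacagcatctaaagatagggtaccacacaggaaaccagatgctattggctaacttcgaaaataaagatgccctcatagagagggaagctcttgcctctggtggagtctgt

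The *Itgam* run held GAGGAA 2 times and TTCNNNGAA 1 time, the *Trem2* run held GAGGAA 1 time, and the *Cx3cr1* run held neither. The run of *Cd68*, not printed, also held GAGGAA 1 time, although its estimate for withdrawal vs. ethanol was as close to 0 as that of *Cx3cr1*. The run of *Csf1r*, whose estimate was 0.03 in that comparison, was available, but its matches are not given here. Of all 33469 upstream runs of this length in the table, 23.3% held GAGGAA on at least 1 strand and 7.67% held TTCNNNGAA, and the matches did not overlap each other in the runs shown. These are matches of letters in a short window and say nothing about binding. *Spi1* itself ran from 2.28 to 3.06 CPM in control, from 2.41 to 3.01 CPM in ethanol, and from 2.18 to 3.74 CPM in withdrawal rats, with q = 0.414 between withdrawal and control by limma-voom.

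Among the receptors by which microglia survey their surroundings, none passed the test. *Cx3cr1* (chr8:128740756-128754514, minus strand), the receptor for neuronal fractalkine, ran from 14.6 to 17.1 CPM (median 16.2) in control, from 12.9 to 19.2 CPM (median 17.0) in ethanol, and from 11.5 to 17.7 CPM (median 16.0) in withdrawal rats. The 3 ranges overlapped, and the lowest value belonged to withdrawal rat 5. The log2 difference between withdrawal and control was -0.03 (95% confidence interval -0.23 to 0.17, q = 0.886 by limma-voom).

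*P2ry12* (chr2:149440807-149482592, minus strand) encodes the ADP receptor that directs microglial processes toward injury. It ranged from 17.0 to 23.01 CPM (median 20.96) in control, from 15.7 to 21.3 CPM (median 18.1) in ethanol, and from 14.4 to 22.2 CPM (median 20.6) in withdrawal rats. The groups overlapped, with 2 of 6 ethanol rats above the control mean. Ethanol minus control was -0.20 on the log2 scale (95% confidence interval -0.44 to 0.05, q = 0.512 by limma-voom).

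*Csf1r* (chr18:56414493-56458300, plus strand), the receptor for CSF1 and IL-34, had the highest level. It ran from 76.4 to 90.5 CPM (median 81.6) in control, from 71.9 to 87.4 CPM (median 81.6) in ethanol, and from 63.6 to 89.2 CPM (median 79.4) in withdrawal rats. The groups overlapped, and the 3 log2 differences ran from -0.08 to 0.03. With 2265 to 3798 counts per rat, counting error accounted for a coefficient of variation (CV) of only 1.85 to 1.87%, against 7.47 to 11.3% observed between rats.

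*Tmem119* (chr12:48598498-48605704, plus strand) encodes a membrane protein found in brain microglia and not in most other macrophages. Values were 8.30 to 16.1 CPM (median 11.9) in control, 8.98 to 12.2 CPM (median 10.04) in ethanol, and 4.91 to 15.2 CPM (median 10.4) in withdrawal rats. The CV was 27.4% in control, 12.1% in ethanol, and 42.0% in withdrawal rats, whereas counting alone gave 4.98, 5.22, and 5.43%. The withdrawal rats had the lowest value of all 18 rats (rat 1) and also values close to the highest. Ethanol minus control was -0.33 on the log2 scale (95% confidence interval -0.76 to 0.10, q = 0.527 by limma-voom), the largest estimate among the members, and it depended on the surrogate variables, since it was -0.15 without them.

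*Aif1* (chr20:5161350-5167176, minus strand) encodes IBA1, the actin-binding protein whose antibody is the usual stain for microglia. The level was 11.05 to 13.4 CPM (median 12.1) in control, 10.5 to 13.8 CPM (median 12.4) in ethanol, and 11.6 to 15.8 CPM (median 12.9) in withdrawal rats. Withdrawal rat 4 had the highest value and the groups overlapped. Withdrawal minus control was 0.11 on the log2 scale (95% confidence interval -0.07 to 0.28, q = 0.506 by limma-voom) and lay between 0.06 and 0.16 when 1 rat was left out.

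*Cd68* (chr10:56268726-56270605, minus strand) encodes a lysosomal membrane protein of phagocytes. It had the fewest counts, 37 to 74 per rat. Its level ran from 1.13 to 1.81 CPM (median 1.71) in control, from 1.48 to 1.98 CPM (median 1.57) in ethanol, and from 1.37 to 1.82 CPM (median 1.72) in withdrawal rats. The groups overlapped, and the spread between rats (CV 11.7 to 15.5%) was close to that from counting alone (12.8 to 13.4%), so a change within that counting error was not detectable at this depth.

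Levels can be compared between genes only per length. In control rats the mean level was 19.2 ± 1.43 FPKM for *Csf1r*, 12.03 ± 0.691 for *Cx3cr1*, 10.9 ± 1.66 for *Tyrobp*, 9.02 ± 0.608 for *Aif1*, and 7.52 ± 0.634 for *Trem2* (SD, n = 6). It was 4.89 ± 0.480 FPKM for *P2ry12*, 4.85 ± 0.615 for *Itgam*, 4.54 ± 1.24 for *Tmem119*, and 1.36 ± 0.210 for *Cd68* (SD, n = 6). *Csf1r* was above *Cx3cr1*, *Aif1* above *Trem2*, *Trem2* above *P2ry12*, and *Tmem119* above *Cd68* in all 6 control rats (two-sided exact sign-flip test, p = 0.0312 each, the smallest that 6 rats allow). The other 4 neighbours in the order did not differ beyond their spread (exact p between 0.0625 and 0.906). The highest mean FPKM was 14.1 times the lowest in control rats, 13.5 times in ethanol rats, and 13.3 times in withdrawal rats. The 5 highest genes were the same in the 3 groups, although *Tyrobp* stood above *Cx3cr1* in withdrawal rats.

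**Figure D3:**
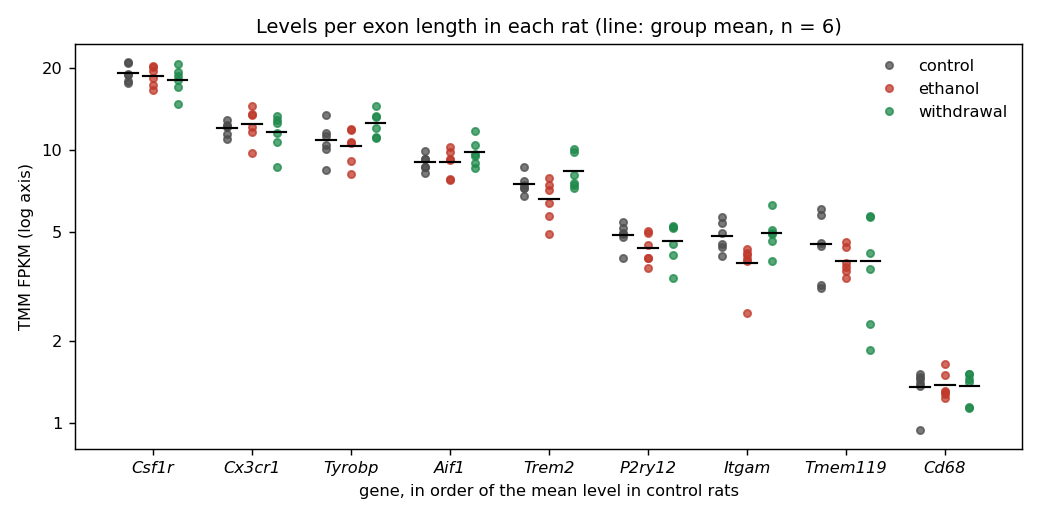
TMM FPKM (y axis, log scale) of the 9 genes in every rat, ordered by the mean in control rats, with points for rats and a line at the mean of each group. The levels descend from 19.2 FPKM for *Csf1r* to 1.36 FPKM for *Cd68* in control rats, and the points of the 3 groups overlap for each gene.

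Rats differed in some of these genes together. After the group means were removed, the Pearson correlation of log2 CPM between the genes over 18 rats had a median of 0.15 over the 36 pairs, of which 29 were positive. It was highest for *Cx3cr1* and *Csf1r* and lowest for *Tmem119* and *Cd68* (-0.45). Of 6 pairs tested, *Cx3cr1* and *Csf1r* had r = 0.842 (Spearman rho 0.725, permutation p = 1e-05, the smallest 100000 permutations give, adjusted p = 6e-05) and r = 0.700 without the 2 rats farthest from the median of *Cx3cr1*, withdrawal rat 5 and ethanol rat 5. For *Cx3cr1* and *P2ry12*, r was 0.681 (rho 0.635, permutation p = 0.00199, adjusted p = 0.00597) and 0.509 without the same 2 rats. The receptor and adaptor *Trem2* and *Tyrobp* had r = 0.309 (rho 0.282, permutation p = 0.211, adjusted p = 0.317), and *Itgam* and *Itgb2* had r = 0.340 (rho 0.366, permutation p = 0.168, adjusted p = 0.317). *Aif1* and *Cd68* (r = 0.130, rho 0.276, permutation p = 0.609) and *P2ry12* and *Tmem119* (r = 0.051, rho 0.013, permutation p = 0.841) were not correlated beyond the permutation threshold either. The points share library depth, dissection, and index set, the last of which differed among the withdrawal rats.

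**Figure D4:**
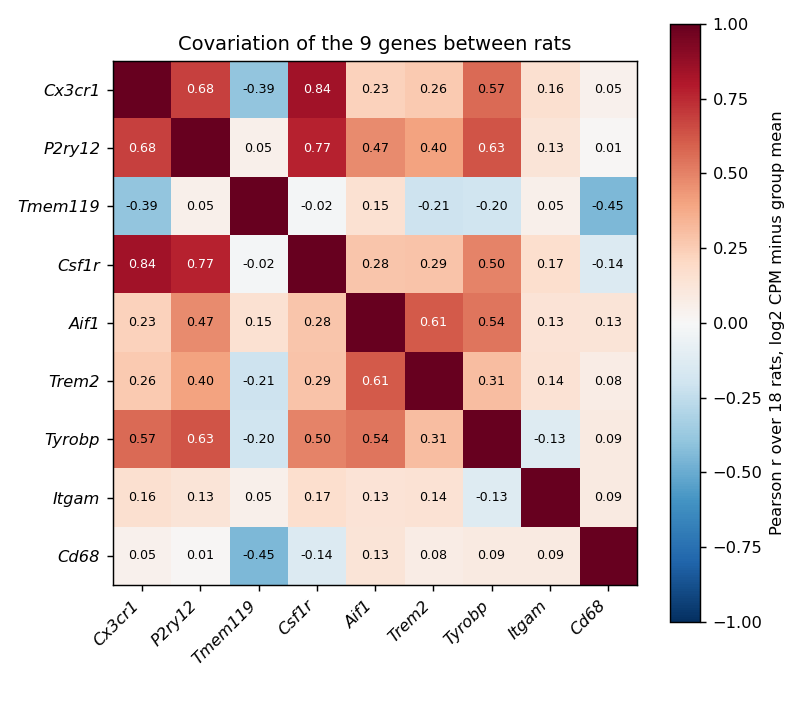
Pearson r between each pair of the 9 genes over 18 rats (color and number), computed on log2 CPM after subtraction of the group mean. *Cx3cr1*, *Csf1r*, and *P2ry12* form the block with the highest values (0.68 to 0.84), whereas *Tmem119*, *Itgam*, and *Cd68* have no value above 0.17 with any other member.

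The genes outside the list whose level was most similar across the 18 rats were found by the same centred correlation over all genes tested, and r is given as a description. For *Cx3cr1* they were *Cyth4* (r = 0.951) and *S100a13* (0.843), and for *Csf1r* they were *Laptm5* (0.906) and *Slco2b1* (0.879). *Cyth4* encodes a guanine nucleotide exchange factor of blood cell lineages, and *Laptm5* a lysosomal membrane protein of the same lineages. The most similar genes were *Zfp431l10* (0.825) and *Lrrc7* (0.804) for *P2ry12*, *Nr2f1* (0.800) and *Tnnt1* (0.800) for *Aif1*, *Tnnt1* (0.809) and *Anxa3* (0.808) for *Trem2*, and *Gabbr1* (0.816) and *Rps13-ps2* (0.796) for *Tyrobp*. For *Itgam* the closest named gene was *Mfsd1* (0.813), after an unnamed one (0.821), and for *Cd68* they were *Tmem11* (0.774) and *Bves* (0.744). The mean of the 9 genes was most similar to *Tgfbr1* (0.851), *Laptm5* (0.831), *Gpr17* (0.814), *Nlrp3* (0.805), and *Ctnnd2* (0.804).

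*Tmem119* was most similar to *LOC108351941* (r = 0.798) and to *Selplg* (0.797), the gene of the P-selectin ligand PSGL-1. *Selplg* is also a microglial marker and lies on the same chromosome at chr12:48577905-48579196 in Rnor_6.0, 19.3 kb from *Tmem119*. This neighbourhood was examined after its values were seen. Of the 7 genes tested within 200 kb of *Tmem119*, *Selplg* and *Iscu* (r = 0.636, 15.8 kb away) had r above 0.5, *Ficd* had 0.372, *Ssh1* -0.012, *Coro1c* -0.032, *Sart3* -0.237, and *Cmklr1* -0.581. The exons of the 9 members overlap no other gene of the annotation on either strand, and the counts were made by strand.

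The ligands of these receptors and the inhibitory signals from neurons were compared as a list of 8 genes, and 0 of 8 were called in any comparison, against 5.41%, 2.72%, and 0.493% of all genes. At an unadjusted p under 0.05 there were *Cd200* and *Il34* for withdrawal vs. control, *Csf1* for withdrawal vs. ethanol, and *Cd47* for ethanol vs. control. Over all genes 19.7%, 16.7%, and 12.5% had such a p in these comparisons. The exact permutation p for the same differences was 0.978 for *Cd200*, 0.106 for *Il34*, 0.385 for *Csf1*, and 0.238 for *Cd47*. *Il34* was called for withdrawal vs. control without withdrawal rat 2, and *Csf1* for withdrawal vs. ethanol without ethanol rat 4. *Cx3cl1*, the fractalkine gene, had a mean of 388 ± 10.3 CPM in control, 419 ± 35.1 in ethanol, and 420 ± 72.5 in withdrawal rats (SD, n = 6). *Csf1* had 24.8 ± 0.681, 24.2 ± 2.63, and 25.7 ± 3.16 CPM, and *Il34* had 32.7 ± 4.03, 31.9 ± 2.94, and 28.9 ± 3.67 CPM (SD, n = 6). Neither CSF1R ligand passed the test, with the lowest q of 0.187 for *Csf1* between withdrawal and ethanol by limma-voom.

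The 6 macrophage transcription factors (0 called) had a median of 0.21 between withdrawal and control with 5 of 6 higher and 2 of 6 at an unadjusted p under 0.05 (5.41% of all genes were called and 19.7% had such a p). Their median was 0.10 with 5 of 6 higher for withdrawal vs. ethanol and 0.05 with 3 of 6 higher for ethanol vs. control, and *Runx1* was called for withdrawal vs. control when only those 2 groups were fitted. The 10 leukocyte genes (0 called in any comparison with all rats) had a median of 0.00 with 5 of 10 higher for withdrawal vs. control. It was 0.15 with 9 of 10 higher for withdrawal vs. ethanol, and -0.08 with 2 of 10 higher for ethanol vs. control. Of them 1, 1, and 3 had an unadjusted p under 0.05, against 19.7%, 16.7%, and 12.5% of all genes. *Ctss* was called in both comparisons with withdrawal rats without withdrawal rat 2, and also without withdrawal rat 5.

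Between withdrawal and control, the calls among 73 other genes tested from 9 lists of microglia and related cells were 5 in number (6.85%, against 5.41% of all genes). Of these, 1 of 11 microglial identity genes fell, 1 of 9 phagocytosis and lysosome genes rose, and 3 of 12 genes of disease-associated microglia rose. *Selplg* was the one that fell, and its level ran from 15.8 to 26.8 CPM (median 20.3) in control, from 17.0 to 19.6 CPM (median 17.3) in ethanol, and from 6.31 to 18.8 CPM (median 13.1) in withdrawal rats. The groups overlapped, and the log2 difference between withdrawal and control was -0.58 (SE 0.16, q = 0.0717 by limma-voom).

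*Gpnmb*, a glycoprotein of phagocytes laden with lipid, rose by 0.70 on the log2 scale (SE 0.16, q = 0.0385 by limma-voom). It ran from 9.73 to 13.1 CPM (median 12.5) in control, from 9.997 to 17.9 CPM (median 12.9) in ethanol, and from 11.6 to 32.1 CPM (median 16.0) in withdrawal rats. *Lgals3*, which encodes galectin-3, rose by 0.76 (SE 0.19, q = 0.0491), with 1.23 to 1.93 CPM in control, 1.77 to 3.61 CPM in ethanol, and 1.51 to 4.41 CPM in withdrawal rats. The ethanol and withdrawal ranges of this gene overlapped, and the exact permutation p was 0.00866 for ethanol vs. control and 0.0823 for withdrawal vs. control.

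*Spp1*, which encodes osteopontin, was called with a difference of 0.78 (SE 0.24, q = 0.0893 by limma-voom). The call rests on few rats, since its level ran from 0.963 to 4.19 CPM (median 2.05) in control and from 0.782 to 40.2 CPM (median 2.57) in withdrawal rats. Without withdrawal rat 5, q was 0.223. The lysozyme gene *Lyz2* rose by 0.22 (SE 0.06, q = 0.0658) against control and by 0.25 (SE 0.07, q = 0.0850) against ethanol, although its ranges overlapped fully (24.2 to 28.3 CPM in control, 25.2 to 34.2 CPM in ethanol, and 19.4 to 38.1 CPM in withdrawal rats) and the exact permutation p was 0.320 and 0.716. *Gpnmb*, *Lgals3*, *Lyz2*, and *Selplg* were called against control with and without withdrawal rat 5. Without that rat *Ctss* and *Lyn* were also called against control, which made 6 of 73 genes (5.86% of all genes). Other single rats decided these calls, since without withdrawal rat 6 the calls were 0 of 73, without control rat 2 or control rat 6 only *Gpnmb* was called, and without withdrawal rat 2 the calls were 11. The share called over all genes moved likewise, to 0.129% without withdrawal rat 6, 3.45% and 2.4% without control rats 2 and 6, and 10.7% without withdrawal rat 2. *Gpnmb* was called in 17 of the 18 fits that left out 1 rat, *Lgals3* in 15, *Lyz2* in 13, *Selplg* in 11, and *Spp1* in 6.

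Between withdrawal and ethanol 1 of the 73 genes was called (*Lyz2*, 1.37% against 2.72% of all genes, and 0 to 5 genes when 1 rat was left out), and between ethanol and control 0 were (0.493% of all genes), where 8 had an unadjusted p under 0.05 (12.5% of all genes). Without withdrawal rat 5, *Ctss*, *Lyn*, and *Lyz2* were called between withdrawal and ethanol (3 of 73, against 3.81% of all genes). The calls depended on the model. Between withdrawal and control, the edgeR quasi-likelihood test called 0 of the 73 (11 at an unadjusted p under 0.05), limma-voom without surrogate variables called 0 (8 at an unadjusted p under 0.05), and DESeq2 called 2 of 71 (2.82%), *Gpnmb* and *Selplg*. Over all genes these tools called 0.185%, 0.23%, and 2.44% at q < 0.1, and their shares at an unadjusted p under 0.05 are not given here. DESeq2 called 1 of 69 (*Fcer1g*, 1.45% against 8.08% of all genes) for withdrawal vs. ethanol and 1 of 67 (*Ctsz*, 1.49% against 2.41% of all genes) for ethanol vs. control. The disease-associated list had a median of 0.24 between withdrawal and control with 11 of 12 genes higher. It was 0.18 with 10 of 12 higher for withdrawal vs. ethanol, and 0.09 with 7 of 12 higher for ethanol vs. control. Markers of other cells were also called between withdrawal and control. Higher were *Pecam1* and *Flt1*, 2 of 5 endothelial genes (q = 0.0257 and 0.0629 by limma-voom), and *Pdgfrb*, 1 of 3 pericyte genes (q = 0.0723). Of 7 astrocyte genes, *Gfap* was higher (q = 0.0775), and *Aldh1l1* and *Gja1* were lower (q = 0.0487 and 0.0866). The endothelial genes *Tek* and *Slco1a4* had log2 differences of 0.02 and -0.08 (q = 0.932 and 0.550), and *Rgs5* of pericytes had -0.02 (q = 0.947). A positive difference was found for 4 of 5 endothelial and 2 of 3 pericyte genes. Of the 3 oligodendrocyte precursor genes, *Pdgfra* was higher (q = 0.0863 by limma-voom) and *Gpr17* lower (q = 0.0675), and of the 6 hippocampal genes *Prox1* was lower (q = 0.0968). Of the 18 fits that left out 1 rat, *Pecam1* was called in 17, *Aldh1l1* in 16, *Flt1*, *Pdgfrb*, and *Gpr17* in 12 each, *Gfap* in 9, *Pdgfra* in 8, *Gja1* in 7, and *Prox1* in 4. DESeq2 called 3 of these 9 genes, *Gpr17* (q = 0.0355), *Pecam1* (q = 0.0541), and *Gja1* (q = 0.0581), and edgeR called none. Their part in these results was not tested. Of the cytokine genes only 3 of 9 had enough counts to be tested, 0 were called, and *Tnf* had no count in any rat. These lists were chosen with results of these data known, and *Spp1*, *Gfap*, and *Pecam1* belong to the set of coexpressed genes that the study chose on these rats.

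**Figure D5:**
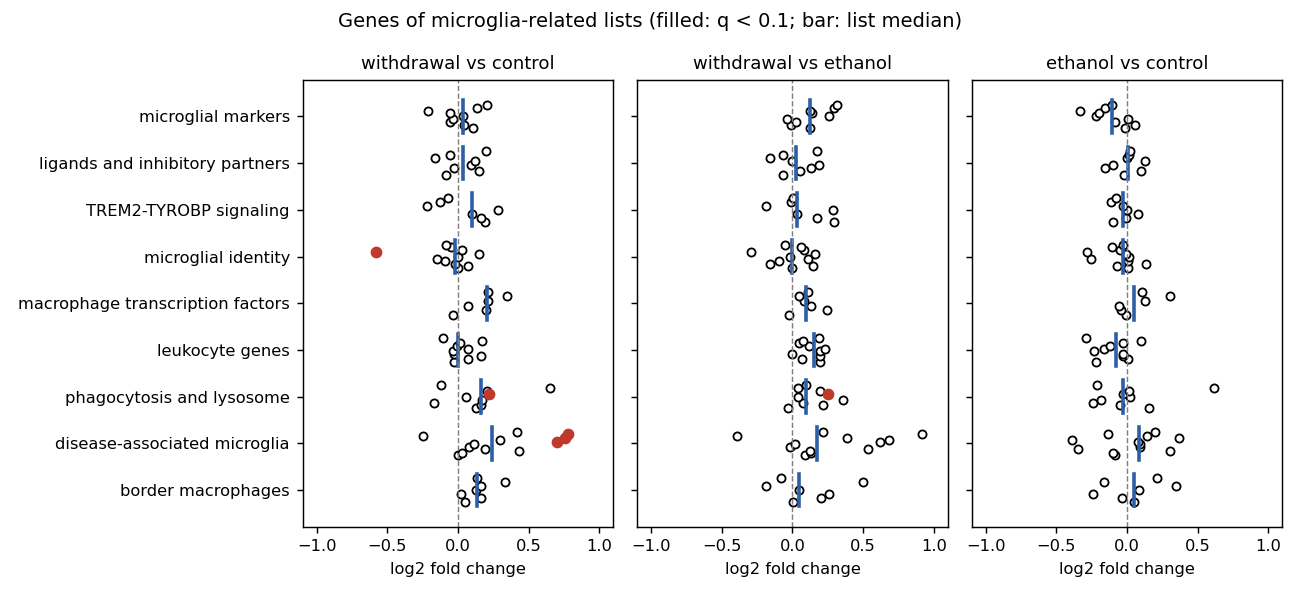
Log2 fold change (x axis) of each gene tested in the 9 member genes and 8 lists of related genes, with a bar at the median of the list and filled points for genes with q < 0.1. Filled points number 5 for withdrawal vs. control, 1 for withdrawal vs. ethanol, and 0 for ethanol vs. control.

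Other cells could carry some of the same RNA. Beside the limma-voom calls below, 5.41% of all genes were called for withdrawal vs. control, 2.72% for withdrawal vs. ethanol, and 0.493% for ethanol vs. control. Border macrophages, which share *Csf1r*, *Aif1*, and *Tyrobp* with microglia, had 0 of 7 markers called in any comparison, and their 8 genes summed to 23.9 to 28.5 CPM in control, 24.3 to 37.5 CPM in ethanol, and 18.6 to 35.5 CPM in withdrawal rats. Monocyte and neutrophil genes, whose cells express *Itgam*, summed to 0.915 to 1.37, 0.836 to 1.51, and 0.587 to 1.99 CPM in the same order, with 0 called and 1 of 6 abundant enough to be tested. Lymphocyte genes had 0 called, with 1 of 7 (*Cd3e*) abundant enough to be tested, and summed to 7.97 to 11.999, 4.06 to 10.007, and 0.699 to 12.1 CPM. That sum was nearly all *Cd3e* (mean 9.69 CPM in control rats), while *Cd3d*, of the same T cell receptor complex, had 0.0574 CPM. Of 3 red blood cell genes, all 3 fell in withdrawal and in ethanol rats compared with control, where the sum of the list was 106.04 to 187 CPM in control, 30.2 to 80.2 CPM in ethanol, and 35.7 to 126 CPM in withdrawal rats. For withdrawal vs. control *Hbb* was called in 18 and *Hba-a1* and *Alas2* in 17 of the 18 fits that left out 1 rat, and DESeq2 called all 3 (q = 0.0201, 0.0604, and 0.0360) while edgeR called none (q = 0.108, 0.163, and 0.152). For ethanol vs. control they were called in 12, 10, and 8 of these fits, and both edgeR (q = 0.0812 each) and DESeq2 (q = 0.00134 to 0.00296) called all 3. Between withdrawal and ethanol, where *Trem2*, *Tyrobp*, and *Itgam* had their smallest limma-voom p-values, 0 of these 3 were called. Among the markers of other cells, *Gfap* of astrocytes (log2 difference 0.74, q = 0.0578 by limma-voom) and *Gad2* of inhibitory neurons (0.35, q = 0.0578) rose in that comparison. Both edgeR (q = 0.0645 and 0.0869) and DESeq2 (q = 0.00752 and 0.0202) called both. By limma-voom they were the only calls, 1 of 7 astrocyte and 1 of 8 neuron genes. *Gad1*, also of inhibitory neurons, had 0.11 (q = 0.435). Of the 7 astrocyte genes 5 were higher, while *Aldh1l1* (-0.27, q = 0.25) and *S100b* (-0.08, q = 0.329) were lower. The part of these cells in the levels of the 9 genes was not tested.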

How the data were processed

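RNA-Seq libraries of dorsal hippocampus from 18 rats (6 in each of 3 groups) were grouped by their labels. The authors made strand-specific libraries, aligned paired reads to Rnor_6.0 with STAR 2.5.2a, and deposited raw counts of read pairs per gene from featureCounts 1.5.0. FastQC 0.11.4 is also named in the submitters' processing notes. Gene identifiers were named from a RefSeq table on GRCr8 (29322 of 38445 named). Upstream sequences were found there for 5 of the 9 members, and those of *P2ry12*, *Tmem119*, *Aif1*, and *Tyrobp* were not in the table used. That of *Csf1r* was found, but it is neither printed nor described here.

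Genes above 0.5 CPM in at least 1 rat were kept (17853), scaled by TMM (edgeR 4.0.16), and tested with limma-voom (limma 3.58.1, R 4.3.3) on all 3 groups with 3 surrogate variables (sva 3.50.0). The study used limma-voom with surrogate variables and the same CPM level. The number of surrogate variables and of rats above that level were set here, so the genes tested are not the same set. The p-values were adjusted by the Benjamini-Hochberg method over all genes tested, and q < 0.1 was called. Exact permutation tests used log2 CPM with a prior count of 2, in Python 3.11.15 with scipy 1.17.1. Correlations used log2 CPM centred on the group means and 100000 permutations. Alternatives were edgeR quasi-likelihood, DESeq2 1.42.0, other scalings, filters, and numbers of surrogate variables, a replicate block, and each rat left out. The scripts were tested on simulated data.

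The genes named are the 9 members, list genes called in a comparison, the ligands and the partner chain of members, the 2 most similar genes of each member, and the 5 most similar to their mean. *Spi1*, *Runx1*, *Fcer1g*, *Ctsz*, *Cd200*, *Cd47*, *Cd3d*, *Cd3e*, *Tnf*, and the neighbours of *Tmem119* were added after their values were seen. The same holds for *Ctss*, *Lyn*, *Tek*, *Slco1a4*, *Rgs5*, *Gad1*, and *S100b*. The members and lists were chosen with earlier results of these data known. Counting error applies to single libraries, of 30873228 to 42679748 counts, and not to the differences between rats. The list of genes downstream of TREM2 and TYROBP is not reported here on its own.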

Additional observations from a re-analysis of the deposited data

Results flagged for a closer look

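The lowest or highest rat of each group was compared with the others for the 9 genes in 3 groups (27 groups of 6 rats) by Dixon's test, and 2 groups had a rat far from the rest. Chance flags about 1 in 20 such groups. Ethanol rat 1 had 10.2 CPM of *Itgam*, where the nearest ethanol rat had 15.8 CPM. Control rat 1 had 1.13 CPM of *Cd68*, where the nearest control rat had 1.65 CPM.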

How the results depend on the processing

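The count of members called was 0 in the alternatives tried except with DESeq2 or without withdrawal rat 5. DESeq2 called 2 between withdrawal and ethanol and 1 across the 3 groups, and between withdrawal and ethanol leaving out each rat gave 0 to 1, with 1 without withdrawal rat 5. Of the exact permutation tests, 2 to 5 had p under 0.05 when a rat was left out, against 4 with all rats, and 2 had it without ethanol rat 6 or withdrawal rat 1, 3, or 4. No share over all genes is given here for this test. The replicate block called 0 members (lowest q 0.303 across the 3 groups and 0.313 between withdrawal and ethanol). The numbers did not pair the rats, since 4 of 18 same-numbered pairs had a correlation over 0.1 (range -0.32 to 0.38). Over all genes the block gave 1 call between withdrawal and ethanol against 486.

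Estimates that changed sign are given on the log2 scale, and none of these was called. Between withdrawal and ethanol, *Tmem119* was -0.098 without surrogate variables, -0.0056 by edgeR, and -0.0069 by DESeq2, *Csf1r* was -0.050, -0.047, and -0.046, and *Cd68* was 0.0033 with 2 surrogate variables, 0.0016 without a filter, and 0.031 with the replicate block. Between ethanol and control, *Cx3cr1* was -0.020 with 2 surrogate variables, -0.0049 with total counts, and -0.0033 with the stricter filter, and *Aif1* was 0.0090 with 2 surrogate variables, 0.0028 by edgeR, 0.00065 by DESeq2, and 0.0055 with the block. In the exact test, *Cd68* between withdrawal and control was -0.0019 with total counts. Leaving out 1 rat changed the sign of 33 of 486 model estimates. The log2 differences for withdrawal vs. control then had the ranges *Cx3cr1* -0.068 to 0.10, *P2ry12* -0.11 to 0.030, *Csf1r* -0.10 to 0.011, *Itgam* -0.015 to 0.12, *Cd68* -0.053 to 0.084. For withdrawal vs. ethanol the ranges were *Cx3cr1* -0.15 to 0.14, *Tmem119* -0.25 to 0.26, *Csf1r* -0.033 to 0.12, *Cd68* -0.073 to 0.058. For ethanol vs. control the ranges were *Cx3cr1* -0.035 to 0.11, *Aif1* -0.069 to 0.042, *Cd68* -0.047 to 0.11. In the exact tests 24 of 324 changed sign. For withdrawal vs. control the ranges were *Cx3cr1* -0.10 to 0.021, *Itgam* -0.043 to 0.093, *Cd68* -0.088 to 0.059. For withdrawal vs. ethanol the ranges were *Tmem119* -0.25 to 0.070, *Csf1r* -0.091 to 0.0067, *Cd68* -0.052 to 0.032. For ethanol vs. control the ranges were *Aif1* -0.041 to 0.038, *Tyrobp* -0.13 to 0.0024, *Cd68* -0.068 to 0.063. The cause was not tested.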
